A study of Mus musculus with 22 samples.

Results

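The kynurenine pathway enzymes described here are the products of 7 named genes, Tdo2, Afmid, Kmo, Kynu, Haao, Acmsd and Qprt, out of 37991 genes in the RNA count files. They form a pathway around Haao. Haao was selected on its RNA counts, which were lower in Rlf mutant than in wildtype fetal liver. The other enzymes were chosen by their place in the same pathway. The RNA levels of Haao in that comparison are thus given as a description, and nothing is read from its test. All 7 genes are protein-coding and on the mm9 assembly, and each had enough covered CpG sites for its methylation to be measured in every bisulphite library.

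The study asked how loss of Rlf, a zinc finger protein, affects DNA methylation and gene expression. Wildtype mice were compared with MommeD28/MommeD28 mutants, which are homozygous for a null allele of Rlf made by ENU mutagenesis. All animals, controls included, were FVB/NJ mice of the Line3 background, homozygous for a multicopy GFP transgene driven by human alpha-globin regulatory sequences, and embryos came from timed matings of heterozygotes. Whole genome bisulphite sequencing was made on whole embryos at E10.5 and on livers at E14.5 and at E18.5, with 2 wildtype and 2 mutant samples at each stage, and RNA-seq was made on 3 wildtype and 3 mutant E14.5 livers. The E10.5 embryos were all male, the E18.5 livers were all female, and the E14.5 bisulphite livers were 1 male and 1 female in each genotype, so that neighbouring stages share 1 sex through the male or the female E14.5 liver. Stage and tissue cannot be told apart between E10.5 and E14.5. The study states that erythroblasts form the larger part of E14.5 liver cells, while hepatoblasts dominate at E18.5. A methylation difference between the liver stages thus cannot be told apart from this change of cell types. In the RNA-seq, replicates 1 and 2 were male and replicate 3 was female in both genotypes. The 4 H3K4me1 ChIP-seq samples were not analysed here. Each sample is a bulk tissue, in which fewer cells of a type and less RNA per cell cannot be told apart.

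The kynurenine pathway is the main route by which the liver breaks down tryptophan. Tdo2 opens the ring of tryptophan, Afmid releases kynurenine from the product, Kmo hydroxylates kynurenine, and Kynu cleaves the hydroxylated form to hydroxyanthranilic acid. Haao then opens the ring of hydroxyanthranilic acid and makes an unstable semialdehyde at a branch point. Acmsd removes a carboxyl group from it and sends it towards complete oxidation, whereas the semialdehyde that escapes Acmsd closes by itself to quinolinic acid, which Qprt uses for the synthesis of NAD. In the adult these enzymes are abundant in hepatocytes, while the fetal liver is also a blood-forming organ that holds many erythroid cells.

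Methylation of a start region is the percentage of unconverted cytosines over the CpGs within 1 kb of the start site. That site is the most 5′ annotated start of a protein-coding transcript of the gene. The CpG content of the region sets how many sites stand behind each value. Every member had fewer CpGs in this 2 kb than the median gene, which had 61. The number was 7 in Tdo2, 17 in Acmsd, 18 in Kynu, 34 in Haao, 35 in Qprt, 36 in Kmo and 52 in Afmid. The ratio of observed to expected CpGs was also under the median of 0.469 in all 7 genes and ran from 0.0691 in Tdo2, with 2.05% of the 22355 genes lower, to 0.428 in Kmo, with 46.0% lower.

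Sequences are shown for 3 stretches, picked after their values were seen as examples of a fall between embryo and liver (Haao, Kmo) and of a gain (Qprt). They are the mm9 reference, which is C57BL/6J and not FVB/NJ, written 5′ to 3′ in the direction of the gene, with each CpG in capitals. The Haao sequence is the 300 bases before the start site on the minus strand, chr17:84246131-84246430, and the Kmo sequence is the 300 bases before its start site on the plus strand, chr1:177561827-177562126. The Qprt sequence lies in the first intron on the minus strand, chr7:134264980-134265169.
Haao: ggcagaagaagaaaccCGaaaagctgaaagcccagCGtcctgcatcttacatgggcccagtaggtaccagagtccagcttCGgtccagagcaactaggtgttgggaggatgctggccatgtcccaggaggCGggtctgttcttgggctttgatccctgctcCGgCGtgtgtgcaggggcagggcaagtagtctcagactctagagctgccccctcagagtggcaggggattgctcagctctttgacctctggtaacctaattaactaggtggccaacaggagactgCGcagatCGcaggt
Kmo: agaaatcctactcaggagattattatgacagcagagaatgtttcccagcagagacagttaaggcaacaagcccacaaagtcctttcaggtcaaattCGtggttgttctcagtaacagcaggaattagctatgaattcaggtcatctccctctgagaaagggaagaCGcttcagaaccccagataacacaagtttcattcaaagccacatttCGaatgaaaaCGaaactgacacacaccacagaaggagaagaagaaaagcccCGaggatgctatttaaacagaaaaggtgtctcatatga
Qprt: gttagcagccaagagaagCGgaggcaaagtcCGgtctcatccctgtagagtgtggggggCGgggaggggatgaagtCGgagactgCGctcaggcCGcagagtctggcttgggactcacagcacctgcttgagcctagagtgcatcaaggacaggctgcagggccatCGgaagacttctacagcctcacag

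All 8 CpGs of the Haao stretch had at least 6 reads in every library. Their pooled methylation was 82.8 and 83.9% in the wildtype and 83.2 and 84.3% in the mutant E10.5 embryos. It was 70.2 and 65.4% in the wildtype and 73.9 and 73.2% in the mutant E14.5 livers, and 52.8 and 43.9% in the wildtype and 60.7 and 57.4% in the mutant E18.5 livers. Both mutant livers were thus above both wildtype livers at each liver stage, while the E10.5 genotypes overlapped. Each of these values rests on 148 to 437 reads. In the Kmo stretch 3 of the 5 CpGs were covered, and wildtype methylation was 75.5 and 66.7% at E10.5, 23.7 and 24.6% at E14.5 and 15 and 18.6% at E18.5, from 30 to 114 reads per library. In the Qprt stretch, with all 7 CpGs covered, wildtype methylation went the other way and was 5.32 and 10.6% at E10.5, 52.4 and 56.6% at E14.5 and 49.5 and 48.8% at E18.5.

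The RNA libraries held 12928313 to 14621004 counted reads. The bisulphite libraries had 16.8 to 18.97 reads per covered CpG at E10.5, 31.4 to 35.4 at E14.5 and 17.6 to 18.3 at E18.5, and 0.0412 to 0.0775% of cytosines in spiked lambda DNA stayed unconverted. Over all CpG reads, methylation was 70.7 to 72.0% in wildtype and 73.3 to 74.0% in mutant E10.5 embryos, 56.4 to 58.5% and 59.2 to 60.3% in E14.5 livers, and 61.4 to 61.7% and 61.4 to 65.5% in E18.5 livers. E18.5 mutant replicate 2, at 61.4%, was level with the wildtype E18.5 livers, and mutant replicate 1, at 65.5%, stood above them all. Rlf itself had 918, 1094 and 982 counts in wildtype and 983, 1106 and 963 in mutant livers. These counts were alike in both genotypes and do not check the labels. Hepatoblast markers made up 57749 to 68490 CPM (counts scaled to a common library size after TMM) in wildtype and 70368 to 81656 in mutant livers, and erythroid markers 30735 to 56041 and 37835 to 41265. Of these, 0 of 13 tested hepatoblast and 0 of 12 tested erythroid markers passed the edgeR test, with 11 of 13 above 0 and 11 of 12 below 0 on the log2 scale.

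In wildtype E14.5 liver the pathway was expressed unevenly. Levels per length, in CPM divided by the exon length in kb (FPKM), were highest for Qprt, at 40.1, followed by Haao at 27.1 ± 4.03 (SD, n = 3). Acmsd at 7.67 ± 1.35 and Kmo at 5.87 ± 0.424 overlapped between livers. Afmid at 1.76 ± 0.219 and Kynu at 0.593 ± 0.361 were lower, and Tdo2 was near the limit of detection at 0.0254 FPKM. Apart from Acmsd and Kmo, neighbours in this order did not overlap in wildtype livers. In mutants the order was the same except that Kmo, at 5.48 ± 0.249, and Acmsd, at 5.41 ± 1.02, were level, and Haao stood at 9.63 ± 2.18.

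**Figure D1:**
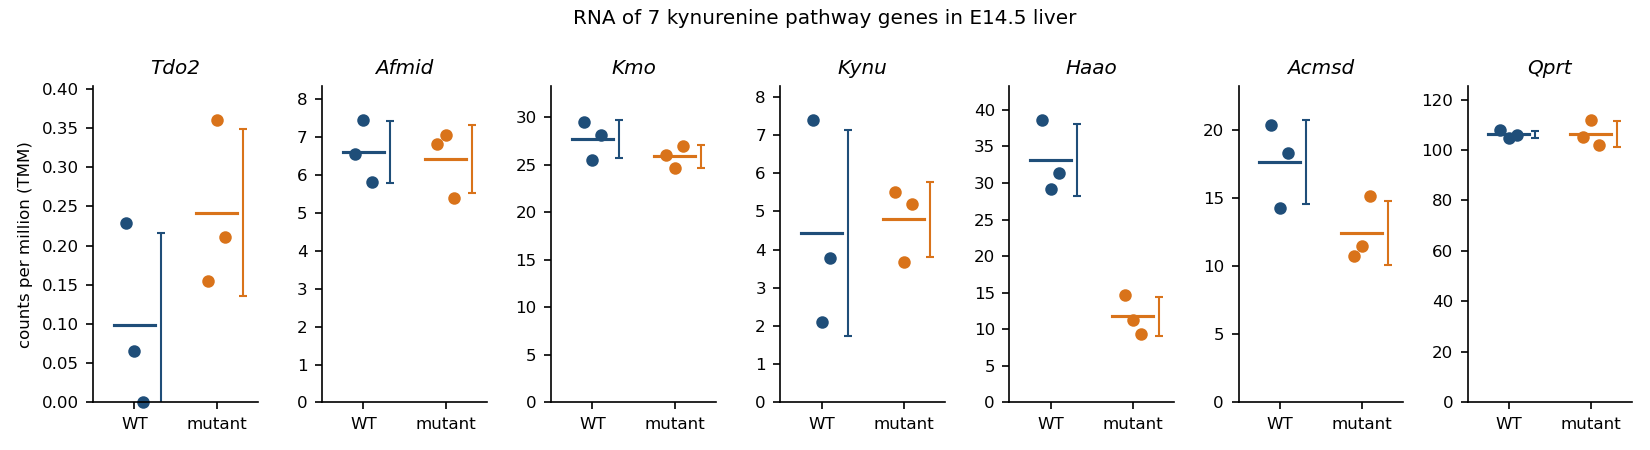
RNA of the 7 pathway genes in E14.5 liver, in CPM after TMM scaling on axes that start at 0, with 3 wildtype (blue) and 3 mutant (orange) livers as points, the mean as a horizontal line and the SD as a bar beside it, drawn from 0 where it would pass below. Haao is at 29.2 to 38.6 in wildtype and 9.40 to 14.7 in mutant livers, while the other genes overlap between genotypes.

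Tdo2, the entry enzyme, had 3, 1 and 0 reads in wildtype livers 1 to 3 and 2, 5 and 3 reads in mutant livers, and it did not pass the filter on low counts. The other entry enzymes were no more abundant, since Ido1 had 0 reads in all 6 livers and Ido2 had 0 to 2. From so few reads a fall could not be seen. Without that filter the log2 fold change of Tdo2 was 1.29 ± 0.93 (SE, adjusted p = 0.681 by edgeR).

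Afmid, the second enzyme, had 86, 113 and 83 counts in wildtype and 88, 98 and 77 in mutant livers. The groups overlapped, with a log2 fold change of -0.04 ± 0.16 (SE) and an adjusted p = 0.933 by edgeR. The start of Afmid lies 169 bp inside Tk1, a thymidine kinase gene on the opposite strand, and because the reads were counted without strand the Afmid counts are uncertain. Exons annotated to Afmid also overlap those of Syngr2, so its exon length and FPKM are uncertain as well. Kmo, the hydroxylase, had 387, 387 and 401 counts in wildtype and 335, 342 and 385 in mutant livers. After scaling for library size the livers overlapped, with a log2 fold change of -0.10 ± 0.08 (SE) and an adjusted p = 0.648. Kynu, the kynureninase, had 97, 32 and 54 counts in wildtype and 71, 51 and 74 in mutant livers. Wildtype livers alone spanned that whole range, so the log2 fold change of 0.13 ± 0.34 (SE, adjusted p = 0.899) lay well within the spread of the livers.

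Haao (ENSMUSG00000000673) lies at chr17:84230696-84246130 on the minus strand. It had 507, 443 and 448 counts in wildtype livers and 189, 156 and 134 in mutant livers. Every mutant liver was below every wildtype liver, by a log2 fold change of -1.49 ± 0.15 (SE), or 2.82-fold. Of the 6 members tested, 1 was called lower by edgeR at an adjusted p under 0.05, which was Haao, and its selection on these values fixed that call. Over the 14183 genes tested, 0.691% were called lower and 0.698% higher. Every mutant liver was below every wildtype liver in 9.83% of them. Since Haao was chosen for this fall, nothing is read from its place in these shares. The flanking genes Mta3, 7640 bp away, and Zfp36l2, 337140 bp away, had log2 fold changes of -0.04 ± 0.08 and -0.10 ± 0.09 (SE), neither past the test (adjusted p = 0.878 and 0.658).

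Neither Acmsd nor Qprt, the enzymes that act next on the product of Haao, passed the test. Acmsd, the decarboxylase, had 267, 216 and 262 counts in wildtype and 139, 159 and 216 in mutant livers. The scaled levels were 20.3, 14.3 and 18.4 CPM in wildtype and 10.8, 11.5 and 15.1 in mutants, so the highest mutant, replicate 3, was above the lowest wildtype, replicate 2. The log2 fold change was -0.50 ± 0.16 (SE) and did not pass the correction over all genes (adjusted p = 0.164, with a range of 0.0325 to 0.419 over the 11 alternatives, of which only the fit without a filter on low counts passed). Qprt, which makes the NAD precursor, had 1415, 1590 and 1510 counts in wildtype and 1356, 1553 and 1452 in mutant livers. Its level was 40.1 against 40.2 FPKM, and its log2 fold change of 0.001 ± 0.06 (SE, adjusted p = 0.994) had the smallest error of the 6 genes.

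Other genes of tryptophan, kynurenine and NAD metabolism were taken from a list of 20, of which 19 were in the files and 15 could be tested. In mutant livers 2 of the 15 were lower and 1 was higher (edgeR, adjusted p under 0.05), beside 0.691 and 0.698% of all tested genes. A log2 fold change below 0 was found in 12 of 15, beside 7172 of 14183 genes, with a median of -0.19 against -0.002. Every mutant liver was below every wildtype liver in 6 of the listed genes, beside 9.83% of all tested genes, and above in 1, beside 1490 of 14183. Aldh8a1, the dehydrogenase that takes the product of Acmsd further, fell from 606, 565 and 495 counts in wildtype to 290, 308 and 313 in mutant livers. The 2 groups did not overlap, and its log2 fold change was -0.82 ± 0.10 (SE, adjusted p = 0.0026). Kyat1 (Ccbl1 in the files), an aminotransferase that turns kynurenine into kynurenic acid, fell from 310, 389 and 348 to 258, 246 and 248 counts, by a log2 fold change of -0.42 ± 0.09 (SE, adjusted p = 0.0472), but this call was lost when any 1 liver was left out and with sex as a covariate, with an adjusted p of up to 0.1502. Ahr, the receptor that binds kynurenine and other tryptophan metabolites, rose from 228, 267 and 319 to 402, 368 and 390 counts, by a log2 fold change of 0.57 ± 0.11 (SE, adjusted p = 0.0319). The call on Ahr held in 7 of 11 alternatives and was lost without wildtype replicate 1 or 2 or mutant replicate 1 or 3, with an adjusted p of up to 0.139.

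The 3 most abundant of the remaining listed genes did not pass the test (adjusted p = 0.891, 0.431 and 0.466 by edgeR). Slc7a5, an amino acid transporter that carries tryptophan, was at 78.4 FPKM in wildtype and 77.0 in mutant livers, with a log2 fold change of -0.03 ± 0.06 (SE). Got2, a mitochondrial aminotransferase, was at 69.4 and 64.0 FPKM, with -0.12 ± 0.07. Slc16a10, a transporter of aromatic amino acids, was at 41.7 and 36.5 FPKM, with -0.19 ± 0.11.

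**Figure D2:**
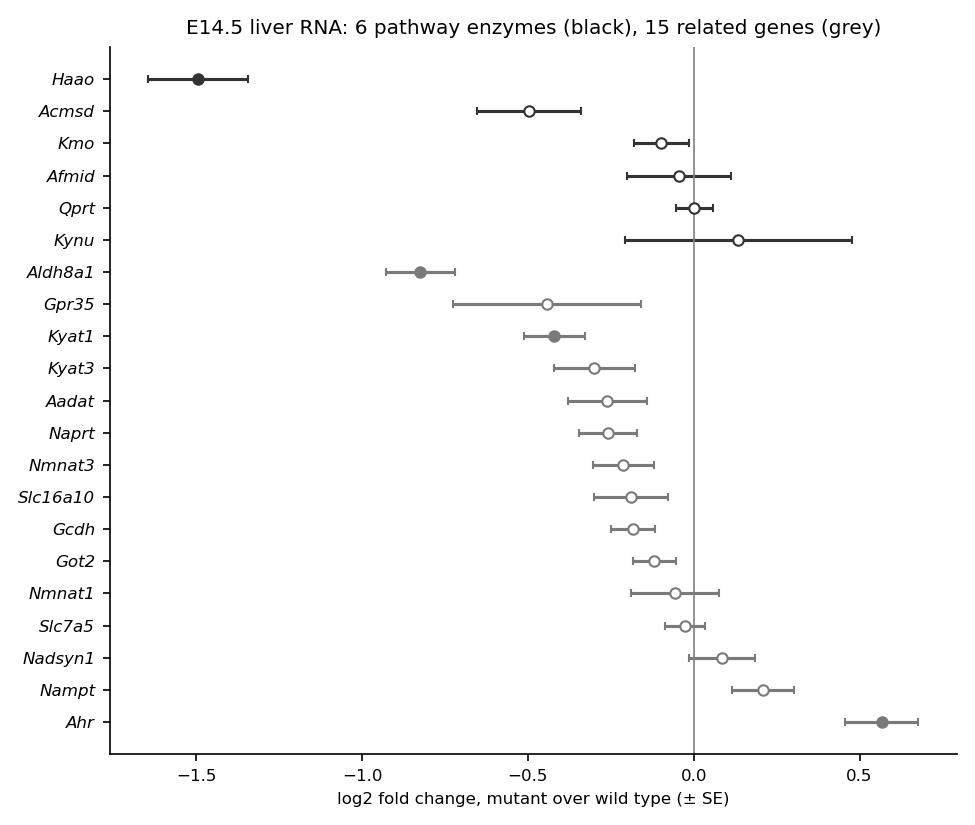
Log2 fold change of mutant over wildtype E14.5 liver RNA, with bars of 1 SE from the edgeR fit, for the 6 tested pathway enzymes (black) and 15 related genes (grey), filled where the adjusted p was under 0.05, which for Haao was fixed by its selection on these counts. Haao is at -1.49 and Aldh8a1 at -0.82, while Qprt and Slc7a5 are near 0 and Ahr is at 0.57.

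The genes with the RNA pattern most like Haao over the 6 livers, by Pearson's r of log2 CPM among 13632 candidates, were Miox, 0610009O20Rik, Enpp3, Dnajb3 and Slc27a5, with r of 0.992, 0.991, 0.990, 0.989 and 0.988. This is a ranking with no test, and a gene with any steady fall in mutants ranks high on it. Miox, an oxygenase of inositol breakdown, had 89, 89 and 84 counts in wildtype and 46, 35 and 28 in mutants. Slc27a5, a bile acid and fatty acid CoA ligase of hepatocytes, had 372, 337 and 323 counts in wildtype and 163, 169 and 159 in mutants. Markers of neutrophils moved in the same comparison, with 3 of 4 called lower in mutants by edgeR, beside 0.691% of all tested genes. These were Elane, S100a8 and Ltf, with log2 fold changes of -0.76, -0.67 and -0.86, and Mpo was at 0.13. In 3 of the 4, every mutant liver was below every wildtype liver, beside 9.83% of all tested genes. DESeq2 called S100a8 alone. The summed level of the 4 markers was 482 to 688 CPM in wildtype and 435 to 506 in mutant livers. Macrophage markers, with 0 of 8 called, summed to 377 to 409 CPM in wildtype and 348 to 366 in mutant livers. Most single markers did not follow this sum, since 5 of the 8 were above 0 and 3 below, with a median log2 fold change of 0.072. The part of these cells in the RNA results was not tested.

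Methylation of the start regions of the wildtype samples changed strongly between E10.5 embryo and E14.5 liver. Of the 7 members, 4 were called lower in the liver (adjusted p under 0.05 and a difference over 5 percentage points), against 33.3% of the 20669 genes tested, and 1 was called higher, against 3.29%. Tdo2, with 4 covered CpGs, fell by 46.6 points, from 73.6 and 70.9% to 24.1 and 27.2% (adjusted p = 1.68e-05). All 4 lie 370 to 903 bp after the most 5′ start, so the value does not cover the sequence at or before that start. The annotated start of the longest coding sequence, at chr3:81779672, lies between the covered CpGs at 81779754 and 81779601. Kmo, with 17 CpGs, fell by 39.6 points, from 81.2 and 79.2% to 39.6 and 41.6% (adjusted p = 5.72e-07). These 2 enzymes differed in RNA at E14.5, where Kmo was well expressed and Tdo2 was close to absent.

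Acmsd, with 13 CpGs, fell by 20.4 points, from 82.5 and 89.3% to 62.4 and 68.5% (adjusted p = 0.000328). Haao, with 18 CpGs and 17.1 to 49.4 reads per CpG, fell by 19.02 points, from 83.2 and 85.3% to 65.5 and 65.1% (adjusted p = 4.23e-05). Its covered CpGs lie from -547 to 70 bp of the start, and the rest of the kilobase after the start was not measured. Haao was thus the second most abundant RNA of the set in a tissue in which its start region was still mostly methylated. Both values are averages over a bulk liver, so the RNA and the methylation may come from different cells. Qprt, the most abundant, was the exception in direction, since its 27 CpGs rose by 28.9 points, from 19.8 and 23.0% to 49.6 and 50.9% (adjusted p = 5.87e-06). In 500 bp windows of Qprt, the wildtype means at E10.5, E14.5 and E18.5 were 59.7, 72.2 and 81.4% just before the start, 9.24, 39.0 and 37.7% just after it and 7.81, 52.4 and 47.2% in the next window. The mean before the start was thus already higher in the embryo, and the difference in window means between embryo and E14.5 liver was larger after the start. The CpGs nearest before the start, at -51, -73 and -229 bp, were lower in wildtype embryos, at 29.2, 41.7 and 19.3%. In wildtype E14.5 livers they were at 53.9, 64.1 and 45.1%.

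Kynu did not pass the test, with 47.0 and 47.5% at E10.5 and 46.4 and 37.2% at E14.5 (difference -5.43 points, adjusted p = 0.436). Afmid, whose start region has the most CpGs, was low on average, at 3.85 to 9.67% in wildtype samples, and its difference of 4.66 points (adjusted p = 0.0123) was under the minimum of 5. The region also holds the start of Tk1, and its average was uneven along its length. The window of 500 bp before the start was at 0.573% in wildtype embryos and 0.120% in E14.5 livers, whereas the 4 CpGs from 500 to 1000 bp after it were at 32.5 and 57.2%. The first E14.5 value of each gene is the male liver, of the same sex as the embryos. With the female wildtype liver left out, the same 5 genes were called, but 1 wildtype E14.5 liver then remained and was taken to vary like the other groups. The differences were then -48.1 points in Tdo2, -40.6 in Kmo, -23.4 in Acmsd, -18.8 in Haao and 28.2 in Qprt.

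**Figure D3:**
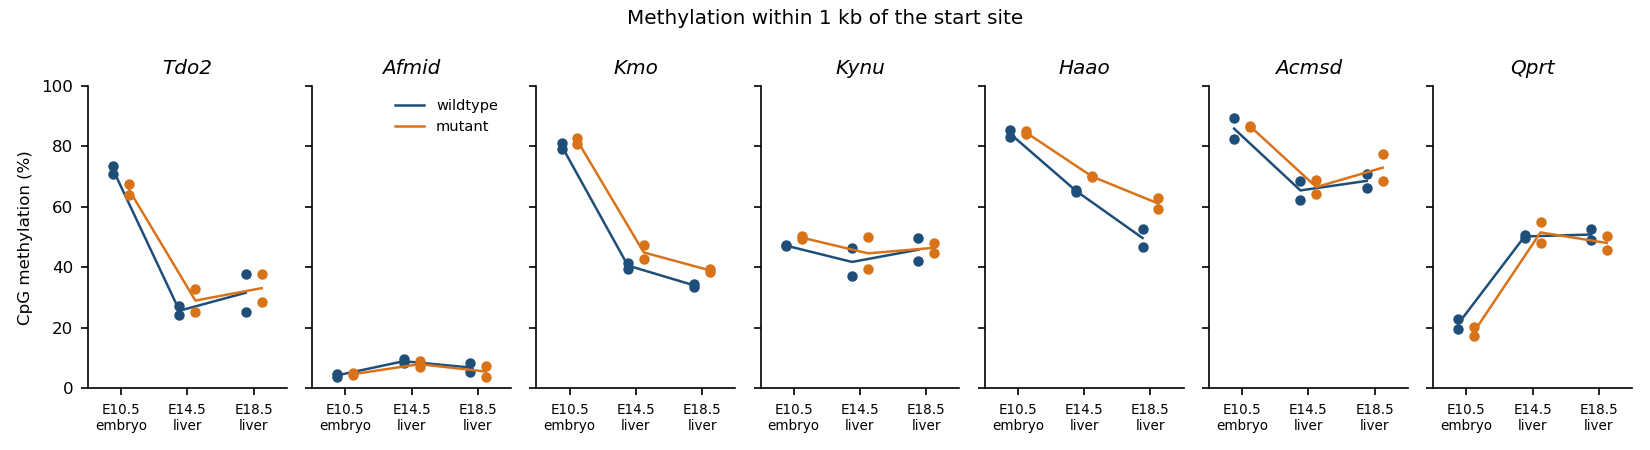
Methylation within 1 kb of the start of each pathway gene, in percent of CpG reads, at E10.5 (embryo), E14.5 and E18.5 (liver), with 2 wildtype (blue) and 2 mutant (orange) libraries as points and lines through the means. Tdo2, Kmo, Haao and Acmsd are lower in liver than in embryo, Qprt is higher, Kynu and Afmid stay near their embryo level on average, and in Haao and Kmo both mutants lie above both wildtypes at both liver stages, beside 13.6% of all genes.

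Between E14.5 and E18.5, Haao was the 1 wildtype start region of the 7 that was called. It fell by a further 15.5 points, from 65.5 and 65.1% to 52.8 and 46.7% (adjusted p = 0.0422), a call made in the lower direction in 0.0532% of tested genes. The call is close to the threshold. It was lost in 11 of 21 alternatives, with an adjusted p of 0.0257 to 0.259, among them leaving out any E10.5 embryo or any wildtype liver, whereas the difference itself ranged only from -18.6 to -12.5 points. Among females, with the 1 remaining E14.5 wildtype liver likewise taken to vary like the other groups, it was -15.3 points with an adjusted p = 0.253. Kmo was lower by 6.55 points (adjusted p = 0.250), and the other members did not pass the test. The part of the changed liver cell types in these stage differences was not tested.

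The bodies of all 7 genes, from 1 kb past the start to the 3′ end, were less methylated in E14.5 liver than in E10.5 embryo in wildtype, by 9.25 points in Qprt to 25.7 points in Tdo2, but so were 87.9% of the 19074 genes tested. Likewise 6 of the 7 stretches from 5 kb to 1 kb upstream were called lower, against 86.1% of 20979 genes. Afmid was not, at -4.99 points (adjusted p = 0.0255 by edgeR), and its stretch lies inside Tk1. Several members were more methylated in wildtype livers at E18.5 than at E14.5. Gene bodies were called higher for Tdo2, by 9.63 points (adjusted p = 0.000811), and Kynu, by 7.89 points (adjusted p = 0.000165), against 33.7% of all genes called higher. Upstream stretches were called higher for Kynu, by 13.6 points (adjusted p = 0.0124), and Qprt, by 7.88 points (adjusted p = 0.0444), against 17.8% of all genes. The upstream calls of Kynu and Qprt held in 16 and 13 of 21 alternatives, with adjusted p of up to 0.223 and 0.354, and both were lost with limma, without either E18.5 wildtype and at a minimum of 15 points. The backgrounds depend on single libraries, since the genes called in either direction went from 6469 to 511 in bodies and from 3767 to 42 upstream without E14.5 wildtype replicate 1, the male liver, where no member was called. The Haao body was at 66.4 and 67.3% in E14.5 and 65.5 and 71.7% in E18.5 wildtype livers, a difference of 1.76 points (adjusted p = 0.425) with stages that overlapped.

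The genotype comparison asked whether the members were more methylated without Rlf. No member's start region was called between genotypes at any stage by edgeR or by limma. The backgrounds were 1.22% of genes called at E10.5, 0.469% at E14.5, 0.493% at E18.5 and 2.41% for the mean of the 3 stages, nearly all of them higher in mutants. At an unadjusted p under 0.05 there were 0, 0, 1 and 2 of the 7 members, beside 2670, 1950, 1920 and 3878 of the 20669 genes. The median difference over the 7 members was 0.39 points at E10.5, 2.85 at E14.5 and 1.52 at E18.5, beside 0.365, 0.425 and 0.237 over all genes. As log2 odds ratios, the scale of the test, the member medians were 0.031, 0.087 and 0.040, beside 0.188, 0.139 and 0.114. The members thus lay above all genes in points and below them in odds, and no excess is read from either.

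Haao had the largest start region difference of the set at E18.5, in the reported fit and in all 22 alternatives. At E14.5 it was followed closely by Kmo, and Kmo, Tdo2 or Kynu had a larger difference under some alternatives, of up to 6.63, 7.21 and 8.20 points against at most 5.45 for Haao. Its methylation was 85.1 and 84.2% in mutant against 83.2 and 85.3% in wildtype E10.5 embryos, which overlapped, with a difference of 0.38 points (adjusted p = 0.983). In E14.5 livers it was 70.3 and 69.8% in mutants against 65.5 and 65.1% in wildtypes, and in E18.5 livers 62.9 and 59.3% against 52.8 and 46.7%. The genotypes did not overlap at either liver stage, with differences of 4.79 points (adjusted p = 0.569) and 11.4 points (adjusted p = 0.187). In points, the E18.5 difference was larger than that of 98.8% of all genes tested, beside 50.5% at E10.5 and 91.7% at E14.5. Ranks were not taken in odds, the scale of the test. The E18.5 difference lay between 8.35 and 14.4 points in 22 alternatives without passing the correction in any. The change of the genotype difference between stages was 4.41 points from E10.5 to E14.5 and 6.59 points from E14.5 to E18.5, and neither passed (adjusted p = 0.936 and 0.931).

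Among the 18 single CpGs of the Haao start region, the mutant mean was higher in 9 at E10.5, 14 at E14.5 and 15 at E18.5. Both mutants were above both wildtypes in 6, 6 and 8 of them, and below in 6, 2 and 0. At E18.5 such CpGs were 2 above and 0 below of 4 in Tdo2, 2 and 1 of 12 in Kynu and 5 and 2 of 17 in Kmo. Afmid had 1 and 0 of 43, Acmsd 2 and 1 of 13 and Qprt 2 and 7 of 27. Single CpGs of other genes were not counted. The CpGs of a region are neighbours read from the same fragments and are not independent.

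Kmo was the other member whose genotypes did not overlap at both liver stages. Both mutants were above both wildtypes in these 2 of 7 start regions at each liver stage, beside 36.1% of all genes at E14.5, 27.8% at E18.5 and 13.6% at both, so that such a pattern was common. Its start region was 47.2 and 42.7% in mutant against 39.6 and 41.6% in wildtype E14.5 livers, and 39.6 and 38.4% against 34.5 and 33.6% in E18.5 livers. These differences of 4.34 and 4.94 points did not pass the test (adjusted p = 0.662 and 0.668). Within the Kmo stretch shown above, E14.5 mutant replicate 1 was at 46.9% and replicate 2 at 20.4%, around wildtypes of 23.7 and 24.6%. Tdo2, Kynu, Acmsd, Afmid and Qprt overlapped between genotypes at both liver stages, with differences from -2.78 points for Qprt to 4.37 points for Acmsd, both at E18.5. In E10.5 embryos Tdo2 was lower in both mutants, at 63.8 and 67.4% against 73.6 and 70.9%, by -6.59 points (adjusted p = 0.675) over its 4 covered CpGs. Kynu was higher in both, at 50.3 and 49.5% against 47.0 and 47.5%, by 2.63 points (adjusted p = 0.905). Over all genes at E10.5, both mutants were below both wildtypes in 7.83% and above in 34%.

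In gene bodies no member was called either, against 2.55% of genes at E10.5, 0.682% at E14.5, 1.11% at E18.5 and 2.32% for the mean of the stages, and 1, 0, 1 and 2 of the 7 members had an unadjusted p under 0.05, beside 2259, 1270, 2570 and 6225 of the 19074 genes. The Haao body, with 171 CpGs, was 84.0 and 84.6% in mutant against 80.1 and 81.0% in wildtype E10.5 embryos, and 69.2 and 70.8% against 66.4 and 67.3% in E14.5 livers. In E18.5 livers it was 75.1 and 71.3% against 65.5 and 71.7%, so there mutant replicate 2 lay below wildtype replicate 2. Both mutants were above both wildtypes in 3, 5 and 3 of the 7 bodies at E10.5, E14.5 and E18.5, beside 51.6, 42.9 and 37.2% of all genes. For the mean of the stages, 1 of the 7 members, Haao, had an adjusted p under 0.05, beside 2710 of the 19074 genes. The Haao differences were 3.74, 3.15 and 4.60 points. Their mean of 3.83 points had an adjusted p = 0.00188 by edgeR but was under the minimum of 5 points. That adjusted p was 0.0857 without E18.5 wildtype replicate 1 and 0.0617 by limma. The whole genome of E18.5 mutant replicate 2 was less methylated than that of mutant replicate 1 and level with the wildtypes. Without mutant replicate 2, the E18.5 difference of the Haao body was 6.495 points and was called. This difference was 1.53 points without E18.5 wildtype replicate 1, 2.70 without mutant replicate 1 and 7.66 without wildtype replicate 2, and was not called there. Without that mutant replicate 2, the number of genes called over all bodies at that stage went from 211 to 3863. The median over the 7 bodies was 0.72, 1.89 and 2.004 points, beside 1.06, 1.58 and 1.91 over all genes, so the bodies of the set as a group lay near the shift seen over all genes.

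**Figure D4:**
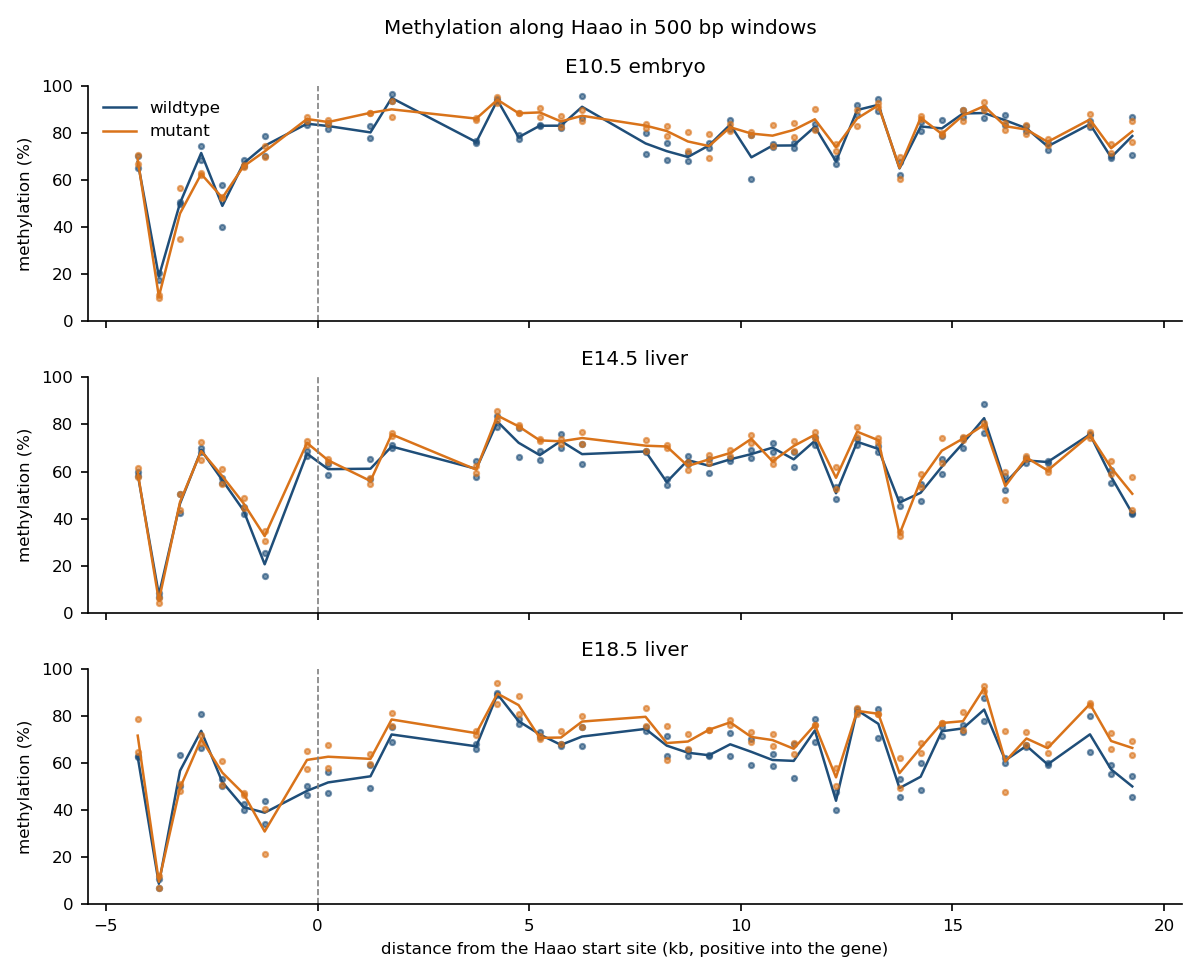
Methylation along Haao in 500 bp windows with at least 3 covered CpGs, against distance from the start site in kb (dashed line at 0, positive into the gene), in embryos at E10.5 and livers at E14.5 and E18.5, with each library as a point and lines joining the means of 2 wildtype (blue) and 2 mutant (orange) libraries. The level beside the start drops from E10.5 to E18.5, most in wildtype, and a low window about 4 kb upstream is low at every stage.

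Along the Haao locus, 40 windows of 500 bp had at least 3 covered CpGs. The mutant mean was higher in 25, 28 and 34 of them at E10.5, E14.5 and E18.5, by a median of 1.86, 2.65 and 5.66 points. Both mutants were above both wildtypes in 12, 13 and 24 windows, and below in 2, 4 and 0. At E18.5 such windows were 6 above and 3 below of 22 in Tdo2, 17 and 9 of 68 in Kynu and 16 and 2 of 52 in Kmo. Afmid had 6 and 5 of 37, Acmsd 5 and 2 of 37 and Qprt 4 and 9 of 38. At earlier stages other members came near Haao, with 11 above and 3 below of 37 in Afmid at E10.5 and in Acmsd at E14.5. Windows of other genes were not counted. The Haao window just before the start had wildtype means of 84.0, 67.6 and 48.1% and mutant means of 86.0, 72.1 and 61.3%. The window just after it, whose covered CpGs lie within 70 bp of the start, had 83.0, 61.0 and 51.7% against 84.7, 64.8 and 62.6%. A window from 4000 to 3500 bp upstream was low in embryo and liver, with wildtype means of 19.1, 7.58 and 8.63%, and mutant means of 10.52, 5.14 and 9.52%. Windows of 1 library share its overall level, and no test was made on them.

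Upstream of the start, between 5 kb and 1 kb, no member was called between genotypes, against 1.03% of genes at E10.5, 0.2% at E14.5, 0.415% at E18.5 and 3.88% for the mean of the stages, and 0, 0, 1 and 1 of the 7 members had an unadjusted p under 0.05, beside 2110, 1268, 2659 and 4565 of the 20979 genes. Both belonged to Tdo2, which was 75.5 and 73.9% in mutant against 66.99 and 69.4% in wildtype E18.5 livers and 65.4 and 65.9% against 60.7 and 62.8% in E14.5 livers. Mutants were above wildtypes at both liver stages, by 6.51 points (adjusted p = 0.277) and 3.90 points (adjusted p = 0.861). Acmsd went the other way in E14.5 livers, at 64.5 and 65.9% in mutants against 72.4 and 67.3% in wildtypes, by -4.65 points (adjusted p = 0.861). Afmid was also lower in both E14.5 mutants, at 52.99 and 51.02% against 53.86 and 53.01% in wildtypes, by -1.43 points. The groups were thus barely apart, and this Afmid stretch lies inside Tk1. Upstream, both mutants were above both wildtypes in 2 members at E14.5 and 3 at E18.5, beside 38.1 and 33.9% of all genes, and below in 2 at E14.5, beside 5.1%. At E10.5 both mutants were above in 4 members, beside 34.6%, and below in 1, beside 7.93%. That 1 was Haao, at 51.8 and 53.7% in mutants against 56.2 and 54.1% in wildtypes, by -2.39 points (adjusted p = 0.859). The upstream stretch of Haao overlapped between genotypes at both liver stages, with differences of 0.90 points at E14.5 and 2.93 at E18.5.

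The interaction of genotype and stage was not called for any member in any region, and 0 members had an unadjusted p under 0.05. For E18.5 against E14.5, the share of all genes called was 0% at start regions, 0% in bodies and 0% upstream by edgeR, with 561, 204 and 401 genes at an unadjusted p under 0.05. For E14.5 against E10.5 it was 0%, 0.021% and 0.00477%, with 655, 304 and 469 genes.

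**Figure D5:**
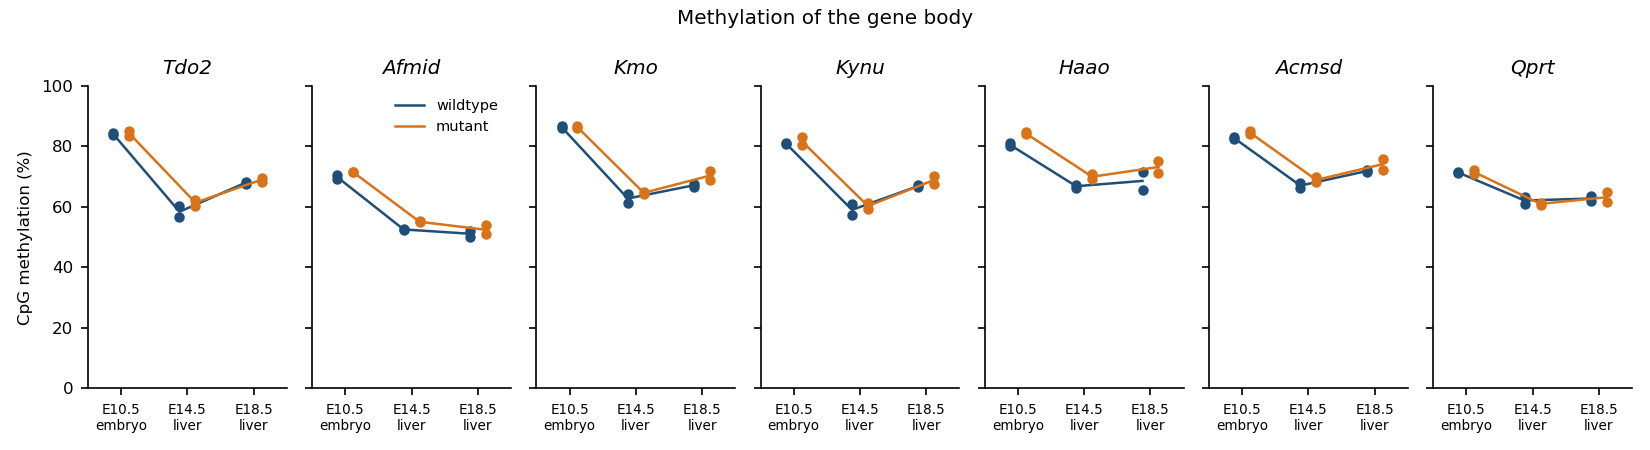
Methylation of the gene body of each pathway gene, from 1 kb past the start to the 3′ end, in percent of CpG reads at E10.5 (embryo), E14.5 and E18.5 (liver), with 2 wildtype (blue) and 2 mutant (orange) libraries as points and lines through the means. All 7 bodies are lower in E14.5 liver than in embryo, and both mutants lie above both wildtypes in 3, 5 and 3 genes at E10.5, E14.5 and E18.5, with Haao among them at E10.5 and E14.5, beside 51.6, 42.9 and 37.2% of all genes.

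Set beside each other in E14.5 liver, RNA and start region methylation of the members did not follow 1 order in wildtypes. Qprt had 40.1 FPKM at a mean of 50.2% methylation, Haao 27.1 at 65.3%, Acmsd 7.67 at 65.5%, Kmo 5.87 at 40.6%, Afmid 1.76 at 8.97%, Kynu 0.593 at 41.8% and Tdo2 0.0254 at 25.7%. The gene with the least methylated start region, Afmid, was among the low ones in RNA, but that region also holds the start of Tk1. Tdo2 was nearly silent at a level under that of Kmo, measured at CpGs after its most 5′ start site and around its other annotated start. The labels do not tie the RNA livers to the bisulphite livers, and in bulk tissue the RNA and the methylation may come from different cells. Whether RNA and methylation of a gene are linked was not tested.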

How the data were processed

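Members and gene lists were chosen with earlier results of these data known. The deposited RNA-seq counts per gene were made by the authors from single-end reads aligned with Tophat to mm9 and counted without strand by htseq-count on Ensembl genes. The deposited bisulphite files give, for each CpG, the unconverted and converted read counts and the percent methylation, for which the authors ran Bismark (Bowtie2) against an mm9 genome carrying FVB substitutions, with duplicates removed and strands merged. The read counts were used here, and the deposited percent was checked against them.

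RNA was tested with edgeR 4.0.16 (quasi-likelihood, TMM, filterByExpr, Benjamini-Hochberg over 14183 genes, in R 4.3.3). FPKM used TMM-scaled totals and union exon lengths of GENCODE vM1. Methylated and unmethylated reads were summed over those CpGs that had a minimum of 6 reads in each of the 12 libraries, in genes with at least 3 such CpGs, and tested in 1 edgeR fit with an intercept per library. A call needed a difference over 5 points besides an adjusted p under 0.05. The planned negative binomial dispersion was replaced by 0 after it recovered few changes in simulated data, and E14.5 reads were thinned to the depth of the other stages in 9 draws, of which the median p was kept. Percentages come from all reads. Alternatives used DESeq2 1.42.0 and limma 3.58.1. Same-numbered RNA replicates deviated together (r = 0.155, 0.220 and 0.426, replicate 3 being female in both genotypes), and with the number as a block 460 genes were called in place of 197, with no change to a member's call. The E14.5 bisulphite livers came from littermates per the study, and litters of the other samples are not given in the sources used here, so p-values measure the spread between these embryos. Depth, given with the levels, limits precision, and read numbers cover counting error only.

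Named genes were the 7 members, up to 6 listed pathway genes (called ones, then those with the highest FPKM), the flanking genes of a member that was called and the 5 genes most like Haao. Chosen after their values were seen, Ido1 and Ido2 were also named. Marker lists of hepatoblast, erythroid, macrophage, neutrophil, endothelial (0 of 5 called) and mesenchymal cells (0 of 4 called) were also run. ChIP-seq was not analysed here.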

Additional observations from a re-analysis of the deposited data

How the results depend on the processing

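Across the alternatives, counts of calls of members, of listed pathway genes and of all genes in RNA were compared with their main value. Of these, 521 stayed within 1.5 times that value and 47 did not. Methylation calls of members between genotypes were 0 in the main fit, and a 0 that stayed 0 counted as within. Among counts of neutrophil markers and of all genes in the methylation tests, 133 did not stay within. With RNA, 197 genes were called in all, 532 with no filter on low counts, 460 with the replicate block and 66 to 224 leaving out 1 liver, with the lowest count without mutant replicate 1. The members called lower went from 1 to 2 with no filter, through Acmsd. The listed pathway genes called lower went from 2 to 1 with sex as a covariate and were 1 to 1 leaving out any liver, and those called higher were 0 to 1. The log2 fold change of Haao, on which it was selected, was -1.68 to -1.35 over the 11 alternatives, from which nothing is read. Leaving out 1 liver turned the sign of 3 small log2 fold changes. Kynu went from -0.215 (without wildtype replicate 2) to 0.704, Afmid from -0.130 to 0.0695 (above 0 without wildtype replicate 2 or mutant replicate 3), and Qprt from -0.0371 to 0.0318 (below 0 without wildtype replicate 2 or 3 or mutant replicate 2).

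For E18.5 against E14.5 wildtype livers, the members called at start regions went from 1 to 0 with a minimum of 1 read, with limma and with the replicate block, and were 0 to 1 leaving out a library. In bodies they went from 2 to 4 with no minimum difference and to 0 at 15 points, and were 0 (without E14.5 wildtype replicate 1) to 4 (without E14.5 wildtype replicate 2). Upstream they went from 2 to 0 at 15 points, 1 with a minimum of 1 read, 0 with limma and 1 with the replicate block, and were 0 (without E14.5 wildtype replicate 1 or either E18.5 wildtype) to 4 (without either E18.5 mutant). The Haao body difference between these stages was -1.30 points without E18.5 wildtype replicate 2 and up to 4.82 points leaving out another library. For E14.5 against E10.5, upstream calls went from 6 to 3 at 15 points. Between genotypes, body calls of members were 0 to 1 leaving out a library at E18.5, through Haao. They also went from 0 to 1 with no minimum difference for the mean of the stages, again through Haao. In that setting 2710 of 19074 genes were called. The causes were not tested.

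Over all genes, start region calls between genotypes were 44 to 458 at E10.5, 4 to 242 at E14.5 and 5 to 261 at E18.5 under other settings, so their number depends on the setting. In bodies at E18.5 they were 67 to 3863 leaving out a library, and upstream 14 to 1150. At start regions, deviations of same-numbered bisulphite samples correlated at 0.0643, 0.374 and -0.0269 at E10.5, E14.5 and E18.5, where the number is also the sex at E14.5, and with 2 pairs they were not taken as paired. The replicate block changed no other member's call. Leaving the E14.5 reads unthinned was added after the data were seen.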
